A study of Homo sapiens with 18 samples.

Results

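The genes described here are 7 matrix metalloproteinases (MMP1, MMP3, MMP7, MMP10, MMP13, MMP14 and MMP16) and 3 tissue inhibitors of metalloproteinases (TIMP1, TIMP2 and TIMP3). They were taken by gene name from a deposited table of 26443 genes with RPKM values, that is, reads scaled to transcript length and library size. The table held 28 MMP and TIMP genes in all. RNA was sequenced from LNCaP, an androgen-responsive human prostate cancer cell line, to ask how loss of FOXA1, a factor that opens chromatin for the androgen receptor, and inhibition of HIF1A, the oxygen-regulated subunit of hypoxia-inducible factor 1, alter transcription. The 18 libraries formed 6 groups of 3: the control vector pGIPZ, an shRNA against HIF1A, the control vector with 40 µM KC7F2, an shRNA against FOXA1, both shRNAs, and the FOXA1 shRNA with KC7F2. KC7F2 is a small-molecule inhibitor of HIF1A and was given for 24 h. Lentiviral infection lasted 5 days, and every culture, controls included, also received 100 µM CoCl2 for the last 24 h. CoCl2 mimics hypoxia chemically, so no group shows the genes in cells without that stimulus. The labels name neither the vehicle of KC7F2 nor separate cultures behind the triplicates, so the p-values given here reflect the spread among the deposited triplicates, which may be technical.

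Matrix metalloproteinases are zinc-dependent proteases that are made as inactive proenzymes, activated by removal of the propeptide, and cut collagens, laminins, proteoglycans and cell-surface proteins. Tissue inhibitors block the active enzymes by binding in the catalytic cleft, and TIMP2 also takes part, with MMP14, in activating pro-MMP2. In carcinomas many of these proteases come from the stroma, whereas matrilysin (MMP7) is made by the epithelial cells. RPKM measures mRNA only, not secreted protein or enzyme activity.

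Depth, recovered from the spacing of the lowest values, ran from an estimated 3211010 reads in a library with both shRNAs to 11957348 in a control library with KC7F2. The shRNAs lowered their targets: FOXA1 fell from a mean of 97.5 ± 22.7 RPKM (SD, n = 3) in control to 34.1 ± 1.51 with its shRNA, and HIF1A from 23.1 ± 7.91 to 3.56 ± 0.642. FOXA1 was at 64.5 ± 5.77 RPKM with both shRNAs, higher than with the FOXA1 shRNA alone, and HIF1A was at 89.9 ± 9.0 with the FOXA1 shRNA and 4.32 ± 0.245 with both. Under KC7F2 the HIF1A mRNA stood at 17.3 ± 5.18 RPKM, which does not check the compound, since KC7F2 is known to act on HIF1A protein. Control replicate 1 and replicates 1 and 3 of control with KC7F2 carried more signal in short than in long genes (0.362 to 0.496 on the log2 scale, relative to all libraries, against -0.191 to 0.116 in the other 15). All 10 markers of LNCaP and luminal prostate epithelium were detected, and their summed level was 1709 to 2205 RPKM in control and lower, without overlap, in every other group: 1504 to 1639 with KC7F2 alone, 1427 to 1577 with the FOXA1 shRNA, 1443 to 1561 with the FOXA1 shRNA and KC7F2, 1044 to 1235 with the HIF1A shRNA and 859 to 981 with both shRNAs.

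Differences below are differences of log2(RPKM + 0.5) ± SE from a limma model over all 6 groups, which understate the change of genes with low RPKM. The words rose and fell are kept for an adjusted p below 0.05 (Benjamini-Hochberg over 12900 genes, those that reached 1 RPKM in 3 or more libraries). Of the 10 members, 7 passed that filter. MMP7, MMP16 and TIMP2 reached 1 RPKM in all 18 libraries. MMP1, MMP10, MMP13 and TIMP1 passed only because of the groups with the HIF1A shRNA, so a test of those groups was bound to draw on the values that let them in. MMP3, MMP14 and TIMP3 did not pass.

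The MMP genes of this set lie mostly together. MMP7, MMP10, MMP1, MMP3 and MMP13 are on the minus strand of chromosome 11 (GRCh38), in a cluster of 9 MMP genes that spans 435 kb from 102520508 to 102955734. The order along the chromosome is MMP7, MMP20, MMP27, MMP8, MMP10, MMP1, MMP3, MMP12, MMP13. MMP14 is on chromosome 14 (22836557 to 22849027) and TIMP1 on the X chromosome (47582313 to 47586789). TIMP2 is on chromosome 17 (78852977 to 78925387) and TIMP3 on chromosome 22 (32801701 to 32863043). MMP1 lies inside WTAPP1, a pseudogene on the opposite strand, and shares 150 exonic bases with it. Whether reads were counted by strand is not given in the sources used here, but WTAPP1 itself was at most 0.464 RPKM in any library. MMP10 and MMP3 share 59 words of 50 bases, 3.36% of the MMP10 transcript, so their reads could mix only over a small stretch.

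Promoters of 5 members (MMP7, MMP10, MMP14, TIMP1 and TIMP3) were matched in the RefSeq table of GRCh38.p14; MMP1, MMP3, MMP13, MMP16 and TIMP2 were not matched. The 250 bases before the start of MMP10, which was higher with the HIF1A shRNA, and of MMP7, which was not, are shown because these genes of the same cluster moved in opposite directions under the same shRNA in FOXA1-depleted cells. They lie at chr11:102780629-102780878 and chr11:102530748-102530997, both on the minus strand, and are written 5′ to 3′ with matches to the motifs searched in capitals.
MMP10: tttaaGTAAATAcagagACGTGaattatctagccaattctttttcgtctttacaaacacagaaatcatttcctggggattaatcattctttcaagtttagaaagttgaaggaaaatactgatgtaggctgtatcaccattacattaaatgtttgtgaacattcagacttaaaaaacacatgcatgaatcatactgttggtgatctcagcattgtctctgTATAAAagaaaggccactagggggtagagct
MMP7: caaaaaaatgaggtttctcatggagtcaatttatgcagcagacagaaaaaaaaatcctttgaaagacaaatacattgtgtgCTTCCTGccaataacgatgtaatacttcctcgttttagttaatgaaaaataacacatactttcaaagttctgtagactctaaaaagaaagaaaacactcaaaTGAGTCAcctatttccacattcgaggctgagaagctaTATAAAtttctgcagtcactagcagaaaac

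The motifs were searched on both strands in 300 bases, 250 before and 50 after each start, and none of the matches overlapped. Both promoters held a TATA box (TATAAA), beginning 31 bases before the start in MMP10 and 30 in MMP7. In MMP10 the other matches were a forkhead word (GTAAATA, the reverse complement of TATTTAC, the other word searched being TGTTTAC) at -245 and the hypoxia response core ACGTG at -233. In MMP7 they were an AP-1 site (TGAGTCA, searched with TGACTCA) at -67 and an ETS word (CTTCCTG, the reverse complement of CAGGAAG) at -169. The MMP10 window held no AP-1 or ETS word and the MMP7 window no forkhead word or hypoxia core. TIMP1 held CAGGAAG at -88 and ACGTG at -231, MMP14 held the hypoxia core at -96, and TIMP3 held none of the words. Of 35116 promoters of the same length, 4.95% held the AP-1 site, 12.7% the ETS word, 5.97% a forkhead word, 21.4% the hypoxia core and 11.5% the TATA word. These are matches of letters, not sites shown to be bound.

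MMP1 and MMP13 are the collagenases among the members, which cut the triple helix of fibrillar collagen. Both were nearly silent in control cells and higher with the HIF1A shRNA. MMP1, interstitial collagenase, was listed at 0 in all 3 control libraries, at 8.0, 6.56 and 7.33 RPKM with the HIF1A shRNA, and at 4.93, 3.38 and 5.43 with both shRNAs. It was at 0, 0 and 0.0502 RPKM with KC7F2 alone, at 0.253, 1.04 and 0.0941 with the FOXA1 shRNA, and at 0.159, 0.145 and 0.167 with the FOXA1 shRNA and KC7F2. The groups that carried the HIF1A shRNA did not overlap with any other group. In these bulk libraries, more cells that express a gene and more RNA per cell cannot be told apart. The reads behind these levels were estimated from the depth and a gene length fitted to give whole reads. They were 0 in control, 480 with the HIF1A shRNA, 18 with the FOXA1 shRNA, 170 with both, 1 with KC7F2 and 8 with KC7F2 and the FOXA1 shRNA. At these depths 1 read of MMP1 was worth 0.0407 to 0.152 RPKM.

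MMP1 rose with the HIF1A shRNA against control (adjusted p = 1.66e-08). No fold is given, because the control libraries are at 0 and a fitted difference would depend on the pseudocount. It also rose when the HIF1A shRNA was added to the FOXA1 shRNA, by 2.50 ± 0.27 (adjusted p = 2.20e-06). With the FOXA1 shRNA alone the adjusted p was 0.0352. That call rested on few reads, passed in 7 of 15 alternative settings, and went to 0.171 without shFOXA1 replicate 2 and to 0.0778, 0.0749 and 0.0543 without control replicates 1, 2 and 3.

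MMP13, collagenase 3, which also cleaves type II collagen and aggrecan, was present at a low level in control, at 0.550, 0.571 and 0.856 RPKM. It was at 7.24, 7.47 and 8.11 RPKM with the HIF1A shRNA and at 3.95, 2.61 and 2.92 with both shRNAs. The libraries with the HIF1A shRNA alone were all above those with both shRNAs, and these were all above control. With KC7F2 alone it was at 0.548, 0.860 and 0.531 RPKM, with the FOXA1 shRNA at 0.287, 0.241 and 0.142, and with the FOXA1 shRNA and KC7F2 at 0.480, 0.220 and 0.881. MMP13 rose by 2.81 ± 0.22 with the HIF1A shRNA (7.03-fold on the log2(RPKM + 0.5) scale, adjusted p = 7.34e-08) and by 2.33 ± 0.22 when that shRNA was added to the FOXA1 shRNA (adjusted p = 5.19e-07). With the FOXA1 shRNA it fell by 0.68 ± 0.22 without overlap (adjusted p = 0.0339, on an estimated 12 reads against 59). This fall passed in 7 of 15 alternative settings; the adjusted p was 0.0543 without control replicate 2, 0.0951 without control replicate 3, 0.0642 without shFOXA1 replicate 2 and 0.115 without shFOXA1 replicate 3.

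**Figure D1:**
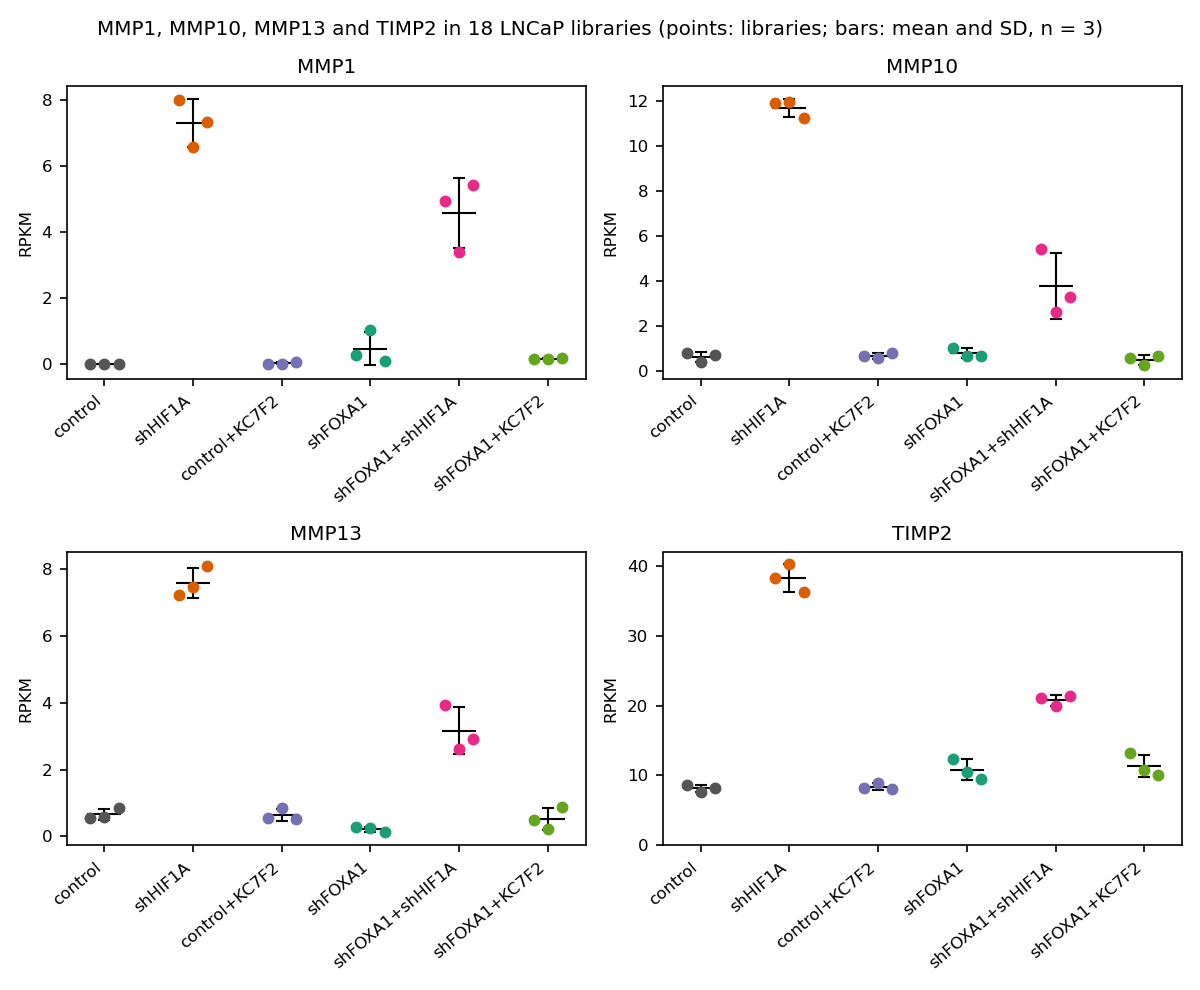
RPKM of MMP1, MMP10, MMP13 and TIMP2 in each library (points, coloured by group), with the mean and SD of the 3 libraries (bars), on linear axes that differ between panels. All 4 genes are highest in the 3 libraries with the HIF1A shRNA and next highest in the 3 with both shRNAs, with no overlap between those 2 groups or with the other groups.

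The stromelysins, which have broad substrates and can activate procollagenases, differed from each other. MMP10 (stromelysin 2) was at 0.801, 0.393 and 0.716 RPKM in control, at 11.9, 11.9 and 11.3 with the HIF1A shRNA and at 5.41, 2.63 and 3.31 with both shRNAs. It was at 0.659, 0.562 and 0.821 RPKM with KC7F2 alone, at 1.034, 0.652 and 0.659 with the FOXA1 shRNA and at 0.556, 0.255 and 0.649 with the FOXA1 shRNA and KC7F2. Of the 4 groups without the HIF1A shRNA, each overlapped with the next in order of mean, but the FOXA1 shRNA libraries (lowest 0.652 RPKM) lay just above those with the FOXA1 shRNA and KC7F2 (highest 0.649), a difference of -0.39 ± 0.23 that did not pass (adjusted p = 0.451). MMP10 rose by 3.44 ± 0.23 with the HIF1A shRNA (10.9-fold on the same scale, adjusted p = 1.37e-08) and by 1.70 ± 0.23 when it was added to the FOXA1 shRNA (adjusted p = 2.23e-05). With the FOXA1 shRNA alone the difference was 0.18 ± 0.23 (adjusted p = 0.615).

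MMP3 (stromelysin 1), the close relative of MMP10 in the same cluster, did not follow it. It was listed at 0 in all libraries of control, of control with KC7F2 and of both shRNAs, and in 2 of 3 with the HIF1A shRNA, the remaining one holding 0.0479 RPKM. It was at 0.0711, 0 and 0.212 RPKM with the FOXA1 shRNA and at 0.416, 0.163 and 0.125 with the FOXA1 shRNA and KC7F2. The last group stood on an estimated 11 reads in its 3 libraries, and at such depth differences between the other groups were not detectable. In the fit with no filter on low values MMP3 was higher with the FOXA1 shRNA among KC7F2-treated cells (adjusted p = 0.0151, groups not overlapping).

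Matrilysin, MMP7, the small epithelial protease that lacks the hemopexin domain of most family members, had a pattern of its own. It was at 6.76, 4.86 and 3.73 RPKM in control, at 8.94, 10.5 and 11.9 with the FOXA1 shRNA, and at 3.57, 2.48 and 3.71 with both shRNAs. It was at 3.56, 3.29 and 3.32 RPKM with the HIF1A shRNA, at 3.55, 1.37 and 2.21 with KC7F2 alone and at 5.73, 4.81 and 5.40 with the FOXA1 shRNA and KC7F2. The libraries with the FOXA1 shRNA alone were above all others, and every other group overlapped with at least 1 more.

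MMP7 rose by 0.99 ± 0.23 with the FOXA1 shRNA (1.99-fold, adjusted p = 0.00520) and by 1.08 ± 0.23 with the same shRNA in KC7F2-treated cells (adjusted p = 0.00229). Both rises passed in all 16 alternative settings. Adding the HIF1A shRNA to the FOXA1 shRNA lowered it (difference -1.55 ± 0.23, 34.1% left, adjusted p = 7.39e-05), also in all 16. Within HIF1A-depleted cells the FOXA1 shRNA gave a difference of -0.07 ± 0.23 (adjusted p = 0.902).

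KC7F2 lowered MMP7 as well, the only member for which either comparison with KC7F2 passed. The difference was -1.001 ± 0.234 in control-vector cells (adjusted p = 0.0345) and -0.91 ± 0.23 in FOXA1-depleted cells (53.2% left, adjusted p = 0.0384). The groups did not overlap in either comparison, the nearest libraries being 3.55 and 3.73 RPKM in the first. The first fall missed the threshold without control replicate 1 (0.0750) or 2 (0.0907) and without replicate 2 (0.129) or 3 (0.114) of control with KC7F2, and also with no filter (0.125) or only the groups compared (0.397). The second missed it without any single library (0.0609 to 0.151). Against control the HIF1A shRNA gave -0.50 ± 0.23 (adjusted p = 0.103), which passed without control replicate 3 (0.0372) and with median-ratio scaling (0.0461).

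**Figure D2:**
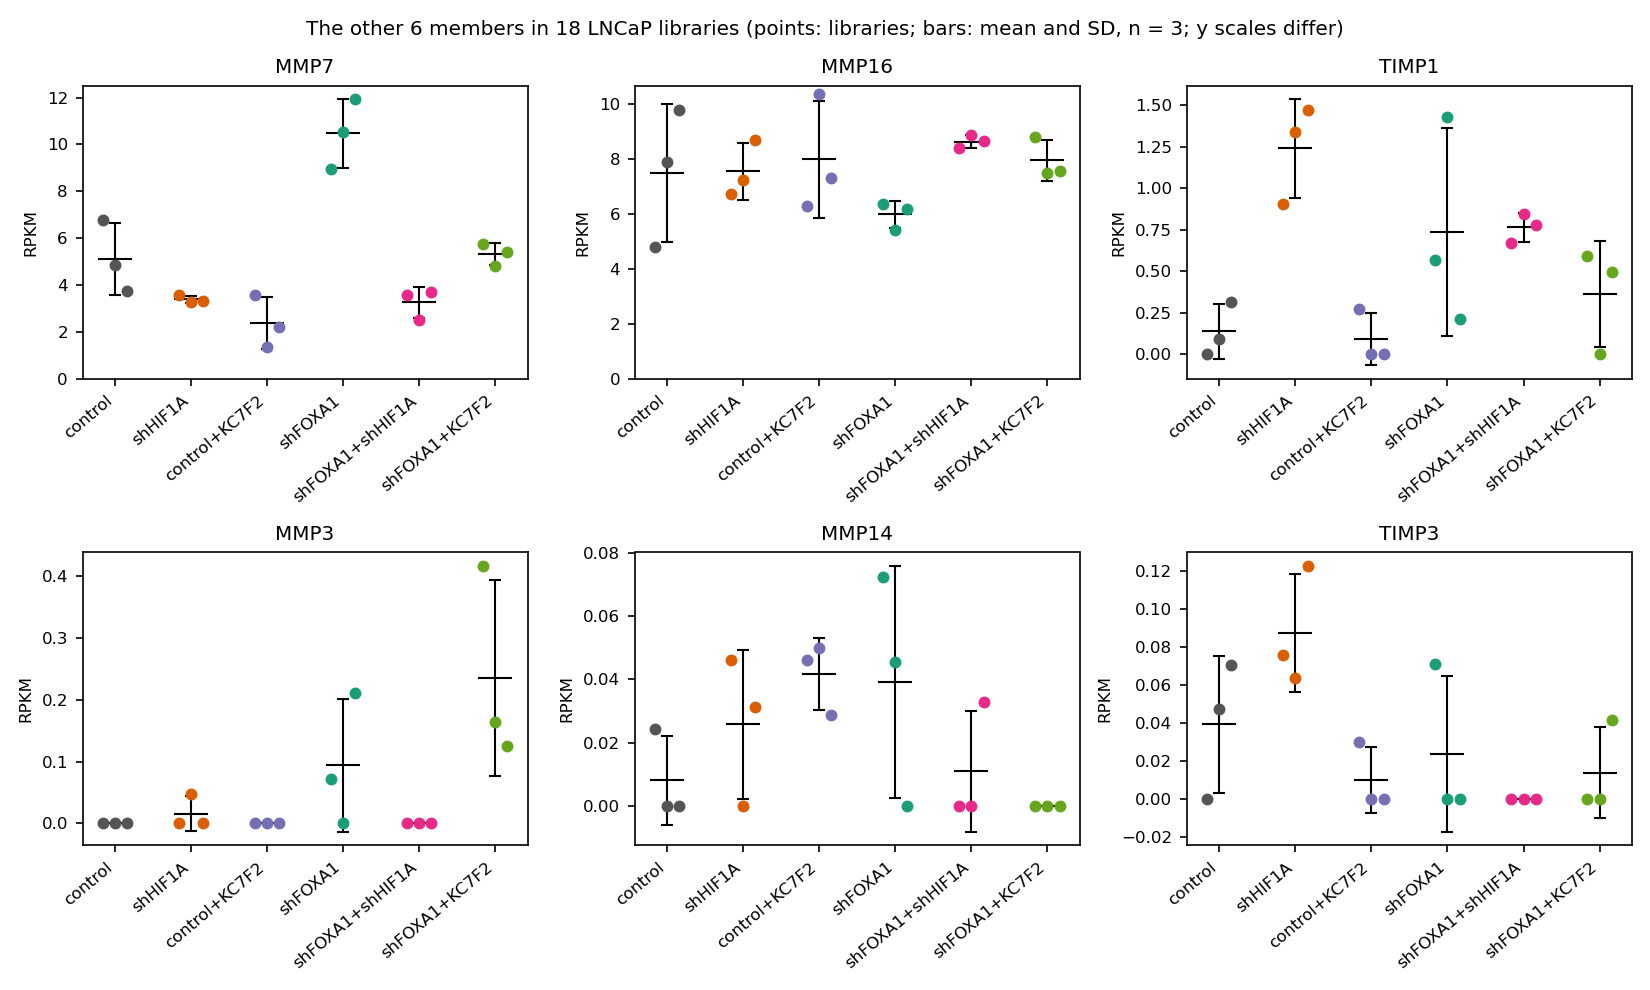
RPKM of the 6 other members in each library (points), with the mean and SD of 3 libraries (bars), on linear axes whose scale differs between panels. MMP7 is highest in the 3 libraries with the FOXA1 shRNA alone (8.94 to 11.9 RPKM), MMP16 lies between 4.79 and 10.4 RPKM in every library, and MMP3, MMP14 and TIMP3 stay under 0.42 RPKM throughout.

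The membrane-type proteases, which are anchored at the cell surface, were at opposite ends. MMP16 (MT3-MMP, chromosome 8) was expressed in every group, with medians from 6.16 RPKM with the FOXA1 shRNA to 8.65 with both shRNAs. The control libraries were spread most widely, at 4.79, 7.88 and 9.78 RPKM, and each group overlapped with the next in order of mean. The libraries with the FOXA1 shRNA alone (5.43 to 6.36 RPKM) nevertheless lay below all those with both shRNAs (8.38 to 8.87). They also lay below all those with the FOXA1 shRNA and KC7F2 (7.48 to 8.80). MMP16 passed in none of the 10 comparisons. The smallest adjusted p was 0.0604, when the HIF1A shRNA was added to the FOXA1 shRNA (difference 0.50 ± 0.20, 95% interval 0.08 to 0.92). That difference passed at the same size without the 3 libraries that carried more short-gene signal (adjusted p = 0.00366) and in a fit of the compared groups alone (0.0068). Against control the HIF1A shRNA gave 0.06 ± 0.20 (interval -0.36 to 0.48), and the FOXA1 shRNA gave -0.25 ± 0.20 (adjusted p = 0.393), which passed without control replicate 1 (difference -0.52, adjusted p = 0.0397) and without those 3 libraries (0.0115). MMP14 (MT1-MMP), the activator of pro-MMP2, was at most 0.0723 RPKM in any library and rested on 0 to 5 estimated reads per group, so no difference could be read from it.

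Among the inhibitors, TIMP2 was the member with the highest level. It was at 8.55, 7.58 and 8.22 RPKM in control, at 38.3, 40.4 and 36.3 with the HIF1A shRNA and at 21.1, 19.9 and 21.4 with both shRNAs. It was at 8.13, 8.96 and 8.10 RPKM with KC7F2 alone, at 12.4, 10.5 and 9.42 with the FOXA1 shRNA and at 13.2, 10.8 and 10.0 with the FOXA1 shRNA and KC7F2. The libraries with the HIF1A shRNA alone were above those with both shRNAs, and these were above all 12 others. TIMP2 rose by 2.17 ± 0.11 with the HIF1A shRNA (4.51-fold, adjusted p = 9.13e-10) and by 0.93 ± 0.11 when that shRNA was added to the FOXA1 shRNA (adjusted p = 6.24e-06). Its exons overlap CEP295NL on the same strand, which was at most 0.311 RPKM.

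TIMP2 also rose with the FOXA1 shRNA, by 0.38 ± 0.11 in control cells (1.30-fold, adjusted p = 0.0175) and by 0.41 ± 0.11 in KC7F2-treated cells (adjusted p = 0.00974). The first missed the threshold without control replicate 2 (0.0689) or shFOXA1 replicate 1 (0.0965). The second missed it without replicate 1 of the FOXA1 shRNA with KC7F2 (0.0598). It was also lost without the 3 libraries that carried more signal in short genes (difference 0.32). That fit leaves 1 library of control with KC7F2.

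TIMP1, the inhibitor most often raised in inflamed or wounded tissue, was scarce. It was at 0, 0.0942 and 0.318 RPKM in control, at 0.906, 1.34 and 1.47 with the HIF1A shRNA and at 0.670, 0.842 and 0.777 with both shRNAs. The HIF1A shRNA libraries were above both of these groups, while the FOXA1 shRNA libraries, at 0.567, 1.43 and 0.211 RPKM, spanned nearly the whole range. It was at 0.271, 0 and 0 RPKM with KC7F2 alone and at 0.593, 0 and 0.498 with the FOXA1 shRNA and KC7F2. TIMP1 rose by 1.46 ± 0.36 with the HIF1A shRNA (adjusted p = 0.00412, on an estimated 36 reads against 4). Added to the FOXA1 shRNA, the HIF1A shRNA gave 0.15 ± 0.36 (adjusted p = 0.778). The FOXA1 shRNA alone gave 0.86 ± 0.36 (adjusted p = 0.0980), which passed without shFOXA1 replicate 3 (0.0351) and with quantile normalisation (0.0490). TIMP3, the matrix-bound inhibitor, was at most 0.123 RPKM and rested on 0 to 15 estimated reads per group. In the fit with no filter TIMP3 was lower with both shRNAs, where it was listed at 0 in all 3 libraries, than with the HIF1A shRNA alone (adjusted p = 0.0362), and higher with the HIF1A shRNA than with KC7F2 (adjusted p = 0.0296).

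Counted by comparison, the HIF1A shRNA against control raised 5 of the 7 members tested (MMP1, MMP10, MMP13, TIMP1 and TIMP2) and lowered none. Of all genes tested, 42.0% were called in that comparison, 25.9% higher and 16.1% lower, or 3347 and 2075 genes against 2745 and 2634 with median-ratio scaling. Since MMP1, MMP10, MMP13 and TIMP1 were tested only because they were high in the HIF1A shRNA groups, their count is not read against that share. Of the 3 members that passed the filter in every group (MMP7, MMP16 and TIMP2), TIMP2 rose. Added to the FOXA1 shRNA, the HIF1A shRNA raised 4 members (MMP1, MMP10, MMP13 and TIMP2) and lowered MMP7, where 37.5% of all genes were called, 24.0% higher and 13.5% lower (3096 and 1745 genes, against 2234 and 2391 with median-ratio scaling). Here too MMP1, MMP10 and MMP13 were in the test through the groups in which they rose. Of the 3 that passed the filter in every group, TIMP2 rose and MMP7 fell. The calls of MMP1, MMP10, MMP13 and TIMP2 in both comparisons, and of MMP7 in the second, held in all 16 alternative settings. TIMP1 held in the 12 in which it could be tested.

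KC7F2 against control lowered 1 of 7 members, MMP7, where 2.04% of all genes were called, 1.05% higher and 0.992% lower (135 and 128 genes, against 101 and 195 with median-ratio scaling). KC7F2 added to the FOXA1 shRNA also lowered MMP7 and no other member, where 4.08% were called, 1.71% higher and 2.37% lower. In control-vector cells the difference with KC7F2 was 0.07 for MMP10 (95% interval -0.41 to 0.55), -0.02 for MMP13 (-0.48 to 0.45) and 0.05 for TIMP2 (-0.19 to 0.28). The upper bounds lay below the rises seen with the HIF1A shRNA. Compared directly, the HIF1A shRNA libraries were above those with KC7F2 for 5 of 7 members, by 3.37 ± 0.23 for MMP10 (adjusted p = 1.39e-08), 2.83 ± 0.22 for MMP13 (6.02e-08), 2.13 ± 0.11 for TIMP2 (6.96e-10) and 1.58 ± 0.36 for TIMP1 (0.00242). MMP1 also rose (1.56e-08), and 42.6% of all genes were called, 23.0% higher and 19.6% lower. Of these 5, only TIMP2 passed the filter without the HIF1A shRNA groups. The shRNA acted over 5 days and the compound over 24 h, so agent and duration cannot be told apart.

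**Figure D3:**
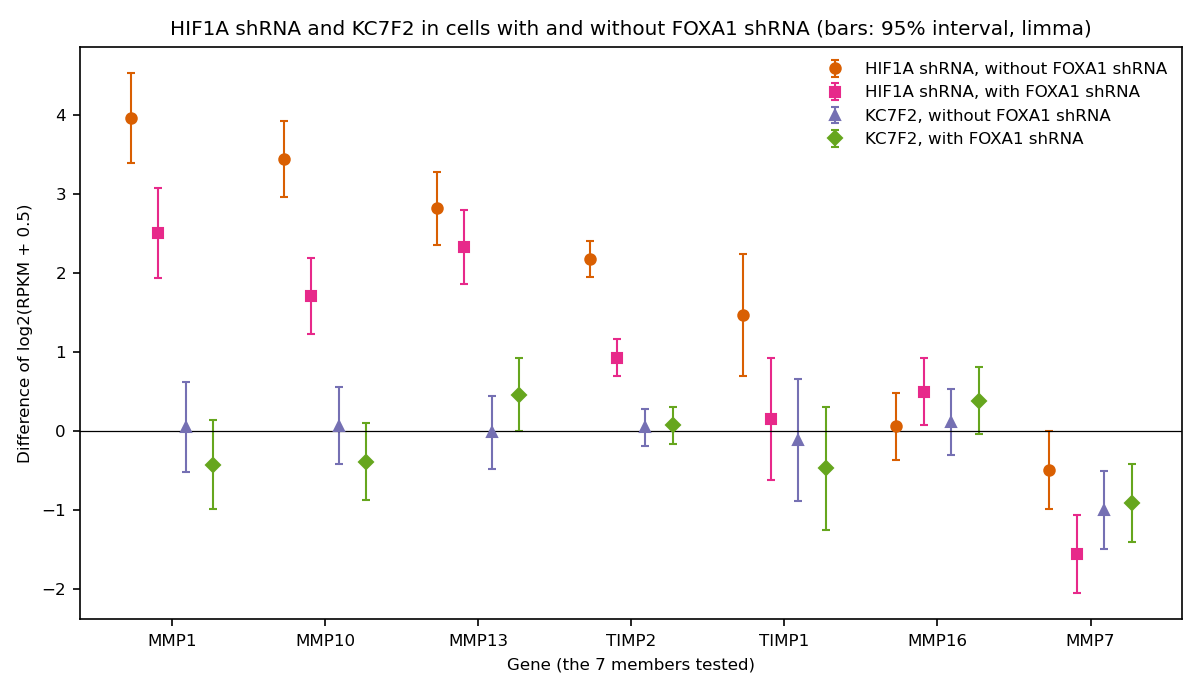
Difference of log2(RPKM + 0.5) for the 7 members tested, for the HIF1A shRNA and for KC7F2, each in cells without and with the FOXA1 shRNA (symbols), with 95% intervals from limma (bars). The HIF1A shRNA gives differences above 0 for MMP1, MMP10, MMP13 and TIMP2 on both backgrounds, and the KC7F2 intervals include 0 for every gene but MMP7. The plotted value of MMP1 against control depends on the pseudocount, since the control libraries are at 0.

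The FOXA1 shRNA against control was called for 4 of 7 members, where 24.1% of all genes were called, 9.52% higher and 14.6% lower (1228 and 1883 genes, against 1498 and 1546 with median-ratio scaling). MMP7, TIMP2 and MMP1 were higher and MMP13 was lower. Of these, MMP7 passed in every alternative. In KC7F2-treated cells it raised MMP7 and TIMP2, 2 of 7, where 32.9% were called, 8.88% higher and 24.1% lower (1145 and 3105 genes, against 1829 and 1883 with median-ratio scaling). In HIF1A-depleted cells the FOXA1 shRNA lowered 3 of 7. Of all genes tested, 14.5% were called, 5.27% higher and 9.25% lower (680 and 1193 genes, against 791 and 1013 with median-ratio scaling). MMP10 and MMP13 were in this test only through the groups compared, so their count is not read against that share. Of the 3 members that passed the filter in every group (MMP7, MMP16 and TIMP2), TIMP2 fell. MMP10 fell by 1.56 ± 0.23 (33.9% left, adjusted p = 0.000192), MMP13 by 1.16 ± 0.22 (44.7% left, adjusted p = 0.00178) and TIMP2 by 0.87 ± 0.11 (54.9% left, adjusted p = 4.89e-05). MMP1 gave -0.64 ± 0.27 without overlap (adjusted p = 0.131), which passed with a pseudocount of 1 (0.0474) and with only the groups compared (0.0349). The 3 falls held in all 16 alternatives. These comparisons share libraries with those of the HIF1A shRNA and are not independent of them.

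The effect of the HIF1A shRNA differed between cells with and without the FOXA1 shRNA for 3 of 7 members. Of all genes tested, 7.61% were called, 3.16% above and 4.45% below 0. MMP1 and MMP10 were tested only because they were high in the HIF1A shRNA groups, so their count is not read against that share. Of the 3 members that passed the filter in every group (MMP7, MMP16 and TIMP2), TIMP2 was called. The interaction was -1.74 ± 0.32 for MMP10 (adjusted p = 0.00268) and -1.25 ± 0.15 for TIMP2 (adjusted p = 8.02e-05), and both held in all 22 alternative settings. The rise was thus smaller in the cells with the FOXA1 shRNA. For MMP1 the adjusted p was 0.0261, and the fitted size again depends on the pseudocount (-2.78 with 0.1 and -1.08 with 1, against -1.46 with 0.5). It missed the threshold in 7 of 22 settings, among them without shHIF1A replicate 1 (0.0705), without shHIF1A replicate 3 (0.0553) and without replicate 2 of both shRNAs (0.0697). For MMP13 the interaction was -0.49 ± 0.31 (interval -1.14 to 0.17, adjusted p = 0.399).

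For MMP7 the interaction was -1.06 ± 0.33 (adjusted p = 0.0644) and it passed in 7 of 22 settings, among them without control replicate 1 (difference -1.26, adjusted p = 0.0289). The group with both shRNAs held more FOXA1 mRNA than the group with the FOXA1 shRNA alone (64.5 against 34.1 RPKM), so an altered response and a weaker FOXA1 knockdown cannot be told apart. No member passed the interaction of the FOXA1 shRNA with KC7F2 (limma, smallest adjusted p = 0.846), where 0.0775% of all genes were called. Among all 12900 genes, 872 had an unadjusted p below 0.05 in that comparison. None of the 7 members was among them, as the 95% intervals of all 7 included 0.

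Summed over each class, the 7 MMP members came to 13.9 ± 1.09 RPKM in control (SD, n = 3), 37.6 ± 1.10 with the HIF1A shRNA and 23.4 ± 3.18 with both shRNAs. The 3 TIMP members came to 8.29 ± 0.495, 39.7 ± 1.93 and 21.6 ± 0.732 RPKM. The ratio of the sums, MMP to TIMP, was 1.68 ± 0.145 in control, 0.950 ± 0.0730 with the HIF1A shRNA and 1.08 ± 0.122 with both. It was 1.60 ± 0.355 with the FOXA1 shRNA, 1.38 ± 0.0837 with KC7F2 alone and 1.26 ± 0.123 with the FOXA1 shRNA and KC7F2. The libraries with the HIF1A shRNA, alone or with the FOXA1 shRNA, had ratios of 0.875 to 1.21, and the control libraries had 1.51 to 1.77. TIMP2 made up most of the inhibitor sum in each group. These sums of mRNA levels per length are a description and say nothing of the balance of proteins.

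The cluster on chromosome 11 did not move as a block. With the HIF1A shRNA the median rose over control for MMP10, MMP1 and MMP13, while MMP7 at one end stood at 3.32 RPKM against 4.86. MMP12, macrophage elastase, lies between MMP3 and MMP13 and had medians of 1.08 RPKM in control, 2.05 with the HIF1A shRNA, 2.98 with the FOXA1 shRNA and 1.64 with both. MMP20, MMP27, MMP8 and MMP3 were at a median under 0.17 RPKM in every group. Of the 9 MMP genes of the cluster, 5 passed the filter (MMP7, MMP10, MMP1, MMP12 and MMP13).

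**Figure D4:**
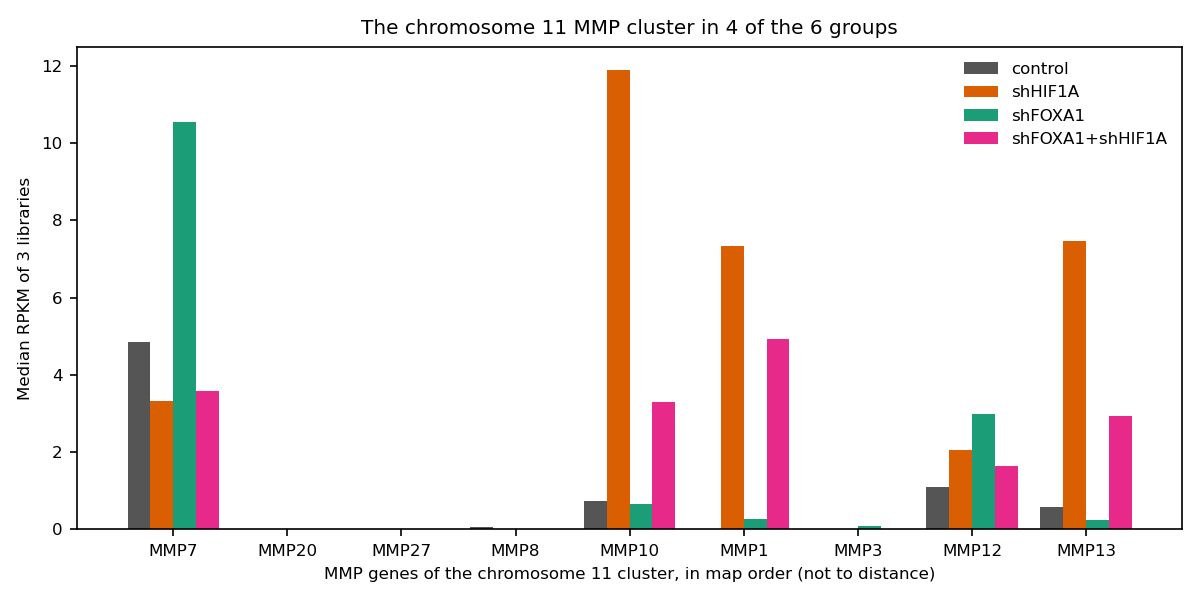
Median RPKM of 3 libraries (bars, linear axis from 0) for the 9 MMP genes of the chromosome 11 cluster in map order, in control and with the HIF1A shRNA, the FOXA1 shRNA or both. The bars of the HIF1A shRNA are the tallest for MMP10, MMP1 and MMP13 (11.9, 7.33 and 7.47 RPKM), those of the FOXA1 shRNA for MMP7 and MMP12 (10.5 and 2.98 RPKM), and MMP20, MMP27, MMP8 and MMP3 stay near 0.

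Of the 7 members tested, MMP10 and MMP13 were the 2 most alike over the 18 libraries. The likeness was measured as the root mean square difference between log2(RPKM + 0.5) values, each gene centred on its own mean, and came to 0.38 for MMP10 and MMP13 and 0.59 for MMP1 and MMP10. Outside the family, the tested genes nearest to MMP10 were GSN, HES2 and IFIT2 (0.42, 0.46 and 0.48), those nearest to MMP13 were BCAS1, HES2 and SLITRK3 (0.35, 0.36 and 0.39), and those nearest to MMP1 were KRT80, STMN4 and C10orf10 (0.53, 0.57 and 0.57). GSN, which encodes the actin-severing protein gelsolin, went from 7.07 ± 0.821 RPKM in control to 50.2 ± 6.70 with the HIF1A shRNA and 32.3 ± 1.07 with both. BCAS1 went from 2.58 ± 0.755 to 20.4 ± 0.901 and 12.2 ± 0.880 RPKM. For MMP16 the nearest was MAGI3, a scaffold protein of cell junctions, at 0.11, where the own spread of MMP16 was 0.27. For TIMP3 the nearest, ZFP91, was at 0.09 and the own spread of TIMP3 was 0.10, so the measure hardly sets any gene apart there.

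The rest of the family was called in part. The table held 17 other MMP genes, of which 4 passed the filter, and the HIF1A shRNA raised 2 of them and lowered none (all genes 25.9% higher and 16.1% lower). MMP11 (stromelysin 3) went from 1.28 ± 0.140 to 5.63 ± 0.572 RPKM (1.79 ± 0.17, adjusted p = 5.95e-07) and MMP15 (MT2-MMP) from 33.7 ± 5.01 to 55.9 ± 5.40 (0.73 ± 0.11, adjusted p = 5.74e-05). MMP15 was thus the most abundant MMP mRNA of those named here. The FOXA1 shRNA raised 3 of the 4: MMP15 to 57.0 ± 1.43 RPKM (0.76 ± 0.11, adjusted p = 6.95e-05), MMP12 from 1.31 ± 0.410 to 2.87 ± 0.386 (0.92 ± 0.24, adjusted p = 0.0105) and MMP24 from 1.34 ± 0.108 to 2.59 ± 0.938 (0.71 ± 0.23, adjusted p = 0.0316). The call of MMP24 was lost in 7 of 15 settings, among them without control replicate 1 (0.0919) or 2 (0.0684) and without shFOXA1 replicate 1 (0.0607) or 3 (0.168). KC7F2 lowered MMP12, the neighbour of MMP13, on both backgrounds, to 0.261 ± 0.0357 RPKM with the control vector and to 0.694 ± 0.227 with the FOXA1 shRNA (adjusted p = 0.0104 and 0.00133). The first of these missed the threshold without replicate 1 of control with KC7F2 (0.0518). It was also lost without the 3 libraries that carried more short-gene signal, a fit that leaves 1 library of control with KC7F2. Of the other inhibitors listed (TIMP4, RECK, A2M, TFPI2 and PZP), 1 was tested and it passed in no comparison.

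Genes that act before or after the proteases changed in both directions. The counts of these lists stand beside the shares of all genes given above, 25.9% higher and 16.1% lower with the HIF1A shRNA and 9.52% higher and 14.6% lower with the FOXA1 shRNA, and they cover only genes that passed the filter. The list of activators and the plasminogen system also holds protease inhibitors, so its counts give no direction of activation. Of its 18 tested genes the HIF1A shRNA raised 9 and lowered 3, with a median difference of 0.49 against 0.07 over all genes. The share lowered was near that of all genes. Those raised were SERPINB5, LRP1, CTSB, BSG, ST14, FURIN, PCSK7 and the inhibitors SPINT1 and SPINK1, and those lowered were TMPRSS2, KLK4 and HPN. TMPRSS2, an androgen-driven membrane serine protease, fell by 2.24 ± 0.09 from 256.6 ± 13.3 to 54.0 ± 4.02 RPKM, and KLK4, a kallikrein, fell by 1.58 ± 0.14. SERPINB5 (maspin), a serpin, rose by 1.81 ± 0.13 from 2.96 ± 0.263 to 11.7 ± 1.85 RPKM. The FOXA1 shRNA raised 4 and lowered 2 of the 18. ST14 (matriptase) rose by 0.69 ± 0.12, ANXA2, a plasminogen-binding annexin, by 1.46 ± 0.26, and TMPRSS2 fell by 0.81 ± 0.09.

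Of 20 tested matrix substrates, collagens, laminins and other proteins that MMPs can cut, the HIF1A shRNA raised 15 and lowered 1, with a median difference of 1.01 (all genes 25.9% higher and 16.1% lower, median 0.07). SDC4, a cell-surface proteoglycan, went from 30.5 ± 3.94 to 84.2 ± 2.20 RPKM, LAMB3, a chain of laminin 332, from 1.41 ± 0.295 to 5.80 ± 1.06, and COL6A1 from 27.5 ± 2.81 to 73.7 ± 7.07. The FOXA1 shRNA raised 8 and lowered 2 of the 20 (median 0.23 against -0.09 over all genes), with LAMB3 at 15.0 ± 0.206, COL17A1, a hemidesmosomal collagen, at 4.48 ± 0.799 against 0.0327 ± 0.0284, and THBS1, thrombospondin 1, at 152 ± 7.46 against 45.8 ± 6.57 RPKM. Of 9 tested ADAM and ADAMTS proteases, the HIF1A shRNA raised 3 and lowered none, a share called that was below the 42.0% of all genes: ADAM10, a sheddase, by 0.71 ± 0.08, ADAM15 by 0.56 ± 0.11 and ADAMTS17 by 0.84 ± 0.23. The FOXA1 shRNA lowered 1 of the 9, ADAMTS1 (-0.34 ± 0.10, adjusted p = 0.0194), which missed the threshold with quantile normalisation (0.543) and without control replicate 2 (0.108) or shFOXA1 replicate 1 (0.0902).

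Regulators upstream of MMP genes were also counted. Of 15 tested AP-1, ETS and RUNX factors, the HIF1A shRNA raised 4 and lowered 3, near the shares of all genes (25.9% higher and 16.1% lower). FOSL2 and JUN, subunits of AP-1, rose by 1.40 ± 0.14 and 1.21 ± 0.12, and ELF3, an epithelial ETS factor, rose by 1.08 ± 0.11. The FOXA1 shRNA raised 8 and lowered 3 of the 15 (all genes 9.52% higher and 14.6% lower): FOSL2 went from 14.0 ± 3.32 to 85.2 ± 2.12 RPKM, while the ETS factors SPDEF and ETV1 fell by 1.77 ± 0.13 and 1.25 ± 0.11. Of 6 tested ligands and cytokines that can induce MMP genes, each shRNA raised 3 and lowered none, where 42.0% of all genes were called with the HIF1A shRNA and 24.1% with the FOXA1 shRNA. CXCL8, interleukin 8, went from 4.91 ± 1.89 RPKM to 13.1 ± 0.639 with the HIF1A shRNA and 24.5 ± 0.305 with the FOXA1 shRNA. TGFA, an EGF receptor ligand, rose with the HIF1A shRNA to 6.38 ± 0.213 from 2.15 ± 0.154 RPKM, and TGFB3 rose with the FOXA1 shRNA to 3.97 ± 0.828 from 0.156 ± 0.109. LIF rose with both, by 1.00 ± 0.14 and 0.47 ± 0.14, the latter missing the threshold without control replicate 1 (0.0603) or 3 (0.0525) and without shFOXA1 replicate 1 (0.0739) or 3 (0.0962). How these regulators bear on the MMP and TIMP levels was not tested.

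Because stromal and immune cells make many MMPs, markers of such cells were measured in the same libraries. The summed level of 10 stromal markers was 2.63 to 3.53 RPKM in control, 7.98 to 9.33 with the HIF1A shRNA and 5.35 to 5.996 with both shRNAs. It was carried by COL1A1 and COL3A1, at most 7.28 and 1.86 RPKM, while COL1A2 was at 0 in 17 of 18 libraries and POSTN in all 18, so those defining fibroblast genes were at or near 0. COL1A1 and COL3A1 also stand among the matrix substrates counted above. Of 6 endothelial markers the sum was 0.624 to 0.944 RPKM in control and 2.11 to 2.73 with the HIF1A shRNA, where 1 marker, VWF, reached 1 RPKM. The sum of 10 leukocyte markers was 6.38 to 8.76 RPKM in control, 4.31 to 6.20 with the HIF1A shRNA and 18.9 to 19.7 with the FOXA1 shRNA. CD68 carried it and was the 1 marker of that list to reach 1 RPKM in each group, with the leukocyte gene PTPRC at 0 in 15 of 18 libraries.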

How the data were processed

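RNA was sequenced in 18 LNCaP libraries, 6 groups of 3, prepared with the NEBNext Ultra kit per the labels' protocols. The authors deposited 1 table of RPKM values. The submitters' processing notes name STAR and hg38. How reads were counted, with which annotation and strand setting, is not given in the sources used here. Of 26475 lines, 32 held no value and were left out. Depth was chosen so that the lowest values of short genes came out as whole reads, as 93.8 to 96.7% of them did within 2%. That share is therefore no separate check of the depth. Read numbers of members also used a gene length fitted to make their low values whole. Estimated read numbers cover counting error only, and the 95% intervals are limma's, from the spread among libraries.

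Values were analysed as log2(RPKM + 0.5) with limma 3.58.1 in R 4.3.3 (1 model over the 6 groups, eBayes with intensity trend, two-sided, 10 comparisons, no adjustment over comparisons). Python 3.11.15 with numpy 2.4.6, pandas 2.3.3 and matplotlib 3.10.9 was used elsewhere. Positions came from GENCODE (GRCh38) and promoters from RefSeq. Genes named from each list were up to 3 with the smallest adjusted p below 0.05 in a comparison, and likeness was given for MMP1, MMP10, MMP13, MMP16 and TIMP3. MMP12 with KC7F2 was named after its values were seen. The members and lists were chosen with earlier results of these data known. Alternatives were other pseudocounts, filters and scalings, robust eBayes, a replicate block, only the groups compared, and libraries left out.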

Additional observations from a re-analysis of the deposited data

Results flagged for a closer look

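The effect of the HIF1A shRNA on 3 genes differed between cells without and with the FOXA1 shRNA by the test of the difference itself (the limma interaction). For MMP10 the interaction was -1.74, from a rise of 3.44 without the FOXA1 shRNA and 1.70 with it (adjusted p = 0.00268). For TIMP2 it was -1.25, from rises of 2.17 and 0.93 (adjusted p = 8.02e-05). For MMP1 it was -1.46 at a pseudocount of 0.5 (adjusted p = 0.0261), a size that depends on the pseudocount because the control libraries are listed at 0. The MMP1 call held in 15 of 22 alternative settings. MMP1 and MMP10 were tested only because they were high in the HIF1A shRNA groups, which enter this comparison. TIMP2 passed the filter in every group. FOXA1 mRNA was 64.5 RPKM with both shRNAs and 34.1 with the FOXA1 shRNA alone, and the part of this difference in the results was not tested.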

How the results depend on the processing

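Of 70 pairs of member and comparison tested, 29 were called, and 22 of these were called under every alternative that could test them. By comparison, the share of all genes called ran from 0.0775% to 42.6%. MMP1, MMP10, MMP13 and TIMP1 were tested only through the HIF1A shRNA groups, so the pooled count is not read against those shares. The FOXA1 shRNA against control called 4 members, but 2 with a pseudocount of 1, with no filter or with a filter of 5 RPKM, 1 with only the groups compared, and 1 to 4 with a library left out. KC7F2 called 1 member against control and 1 when added to the FOXA1 shRNA. Each count went to 0 with no filter, the first also with only the groups compared and the second with a pseudocount of 0.1, and they were 0 to 1 and 0 with a library left out. The FOXA1 shRNA within KC7F2 called 2 members, and 1 to 2 with a library left out. The fit without the 3 libraries that carried more short-gene signal left 1 library of control with KC7F2. Its counts of members are therefore not given for comparisons with that group. Its counts of all genes for those comparisons, listed below, rest on that 1 library. They are not read as a measure of how the calls depend on the processing. Over all genes, the FOXA1 shRNA called 3111, and 1747 with only the groups compared. KC7F2 called 263, 26 with only the groups compared, 67 without those 3 libraries and 150 to 502 with a library left out; added to the FOXA1 shRNA it called 526, and 303 to 350. The FOXA1 shRNA within KC7F2 called 4250, 1788 without the 3 libraries and 2813 to 4320 with a library left out; within the HIF1A shRNA it called 1873, and 1174 to 1646. The HIF1A shRNA against KC7F2 called 5501, and 3102 without the 3 libraries. The interaction with KC7F2 called 10 genes, 3 with a pseudocount of 0.1, 27 with 1, 39 with no filter and 25 with quantile normalisation. It called 3 with only the groups compared and 2 to 23 with a library left out. Fewer samples or other genes tested were part of several of these alternatives; otherwise the cause was not tested.

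Values that changed sign had not passed in any direction. For MMP13 with KC7F2 the difference was 0.17 without the 3 libraries and -0.15 to 0.10 with a library left out, and for MMP10 with KC7F2 it was -0.10 to 0.17. TIMP2 with KC7F2 was at -0.038 with median-ratio scaling and -0.0021 with quantile normalisation. MMP16 with the HIF1A shRNA was at -0.030, -0.036 and -0.21 with those scalings and without the 3 libraries, and -0.21 to 0.27 with a library left out. TIMP1 with the HIF1A shRNA added to the FOXA1 shRNA was at -0.19 to 0.21, and MMP7 with the FOXA1 shRNA within the HIF1A shRNA at -0.16 to 0.091. Median-ratio scaling moved the median of all genes by -0.11 for the HIF1A shRNA on top of the FOXA1 shRNA and by 0.15 for the FOXA1 shRNA within KC7F2 (0.13 with quantile normalisation). No member call of these comparisons changed direction.

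The replicate numbers did not pair the libraries: of 45 same-numbered pairs 9 correlated over 0.1, and 7 of 18 libraries correlated best with their own number. With the replicate block the interaction of MMP7 passed (-1.06, adjusted p = 0.0441), and no member call was lost. At 3211010 to 11957348 reads per library, MMP3, MMP14 and TIMP3 rest on too few reads for differences to be detectable in most comparisons.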
